A study of Mus musculus with 2 samples.

Results

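Of the 11935 cell barcodes sequenced from newborn mouse heart, 92 were taken as arterial endothelial cells, the cells that line arteries. The name is that of the selection rule, and 69 of the 92 met its last step with 2 genes, the fewest it allows. Of the barcodes with at least 500 detected genes, 11749 in all, a member had haemoglobin genes (Hba-a1, Hba-a2, Hbb-bs and Hbb-bt) below 0.5% of its counts and the myosin light chain genes Myl2 and Myl7 below 0.3%. It also had at least 1 count of the endothelial adhesion genes Pecam1 and Cdh5, at least 4 counts of the vascular genes Fabp4, Gpihbp1, Cldn5 and Rgcc, and at most 2 counts of the endocardial genes Npr3, Tmem108, Foxc1 and Nrg1. These steps left 690 vascular endothelial barcodes. The last step, which alone separates the arterial barcodes from the other 598 vascular ones, asked for at least 3 counts of Gja4, Gja5, Sox17 and Bmx from at least 2 of these 4 genes, called the rule genes below. Technical replicate 1 gave 47 members and technical replicate 2 gave 45, or 13.4% and 13.2% of their vascular barcodes. Pooled, the share was 13.3% of vascular endothelium (exact 95% Clopper-Pearson interval 10.9 to 16.1%) and 0.783% of all barcodes with at least 500 genes (interval 0.632 to 0.959%).

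The barcodes came from whole hearts of mice at postnatal day 0 with a C57BL6+ICR background, which were minced and taken apart with trypsin at 37 °C over 30 min, the loosened cells being collected in 6 fractions. Libraries were made with the 10x Genomics Single Cell 3' v2 kit as 2 technical replicates of 1 biological sample. The labels name no treatment or genetic change and do not give the number of hearts. The wider study used such cell profiles of the newborn heart to choose transcription factors for lineage conversion.

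Arterial endothelium takes its identity early, under VEGF and Notch signals and SoxF transcription factors, of which Sox17 is 1 member. Notch receptors on 1 cell are activated by Delta-like and Jagged ligands on its neighbour, and the released receptor domain joins the DNA-binding protein RBPJ to switch on genes of the Hey and Hes families. Gja4 and Gja5 encode connexins 37 and 40, which couple arterial endothelial cells through gap junctions, and Bmx encodes a cytoplasmic tyrosine kinase known from arterial and endocardial endothelium. In the mouse heart, coronary arteries are built in part from capillary cells that adopt an arterial state, a process in which the chemokine Cxcl12 and its receptor Cxcr4 are known to act.

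Values are given as CPM: the counts of a gene summed over the barcodes of a group, divided by all counts of that group and scaled to a total of 1000000. Where 2 values follow in brackets, they are technical replicates 1 and 2 in that order. Arterial barcodes were deep, with a median of 15501.5 counts and 4398.5 genes (range 2138 to 70292 counts), against 8228.5 counts and 2967 genes in the other vascular barcodes. The median mitochondrial share was 3.77% in arterial and 3.94% in other vascular barcodes. The share of members moved with depth: with the vascular barcodes cut into 4 depth groups of 172 or 173, it was 3.47%, 8.14%, 15.7% and 26.0% from the shallowest to the deepest. The libraries shared 53 barcode sequences, of which 0 were arterial. With 1 biological sample no test between samples can be made, and all intervals cover counting error only.

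The rule genes are described here without reading a difference from them, since they chose the members. The 92 members had a median of 5.5 counts of the 4 genes and at most 87. Sox17 was counted in 89 members, Gja4 in 72, Gja5 in 30 and Bmx in 27, against 339, 21, 11 and 8 of the other 598. Gja4 (GRCm38 chr4:127311421-127314039) stood at 211 CPM (171 and 268) in arterial, 7.47 CPM in other vascular and 206 CPM in endocardial barcodes. Gja5 (chr3:96904693-97077416) stood at 102 CPM (57.3 and 165) in arterial, 1.68 CPM in other vascular and 15.7 CPM in endocardial barcodes. Sox17 (chr1:4490931-4497354) stood at 315 CPM (294 and 345) in arterial, 112 CPM in other vascular and 20.8 CPM in endocardial barcodes. Bmx (chrX:164192842-164258193) stood at 18.8, 1.37 and 66.8 CPM in the same groups. Just inside the threshold lay 19 members with exactly 3 counts. Just outside it lay 18 barcodes with 2 counts from 2 genes, and 94 with at least 3 counts of 1 gene, which was Sox17 in 90 of them. For 42 of the 92 members, Gja4, Gja5 and Bmx together had 1 count.

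Each rule gene was therefore left out of the last step in turn and read in the barcodes that passed without it. The members were chosen with earlier results of these data known, so these ratios are not independent evidence for the label. Gja4 was at 306 CPM (244 and 397) in the 42 barcodes that passed on the other 3 genes, against 21.1 CPM in those that did not, a ratio of 14.5 (interval 11.9 to 17.8). Gja5 was at 110.4 against 3.52 CPM, a ratio of 31.3 (20.3 to 50.3), with 80 passing barcodes of which 18 had a count. Sox17 was at 696 against 128 CPM, a ratio of 5.44 (4.74 to 6.23), in 23 passing barcodes. Bmx was at 14.7 against 2.93 CPM, a ratio of 5.01 (2.61 to 9.67). All 4 ratios were above 3 in each technical replicate, with the lowest at 3.16 for Bmx in replicate 1.

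The label was checked on the 2 markers outside the rule. Hey1, a transcriptional repressor and Notch target, was at 131 CPM (125 and 139) in arterial against 20.1 CPM (21.4 and 18.8) in other vascular barcodes, a ratio of 6.51 (5.23 to 8.13). The arterial values were far above the others in both replicates. Jag2, a Notch ligand, was at 21.1 CPM (21.4 and 20.6) against 11.9 CPM (13.9 and 9.87), a ratio of 1.77 (1.16 to 2.65). Jag2 stayed under 2-fold in replicate 1, so of these markers Hey1 went with the arterial label by more than 2-fold in both replicates and Jag2 did not.

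**Figure D1:**
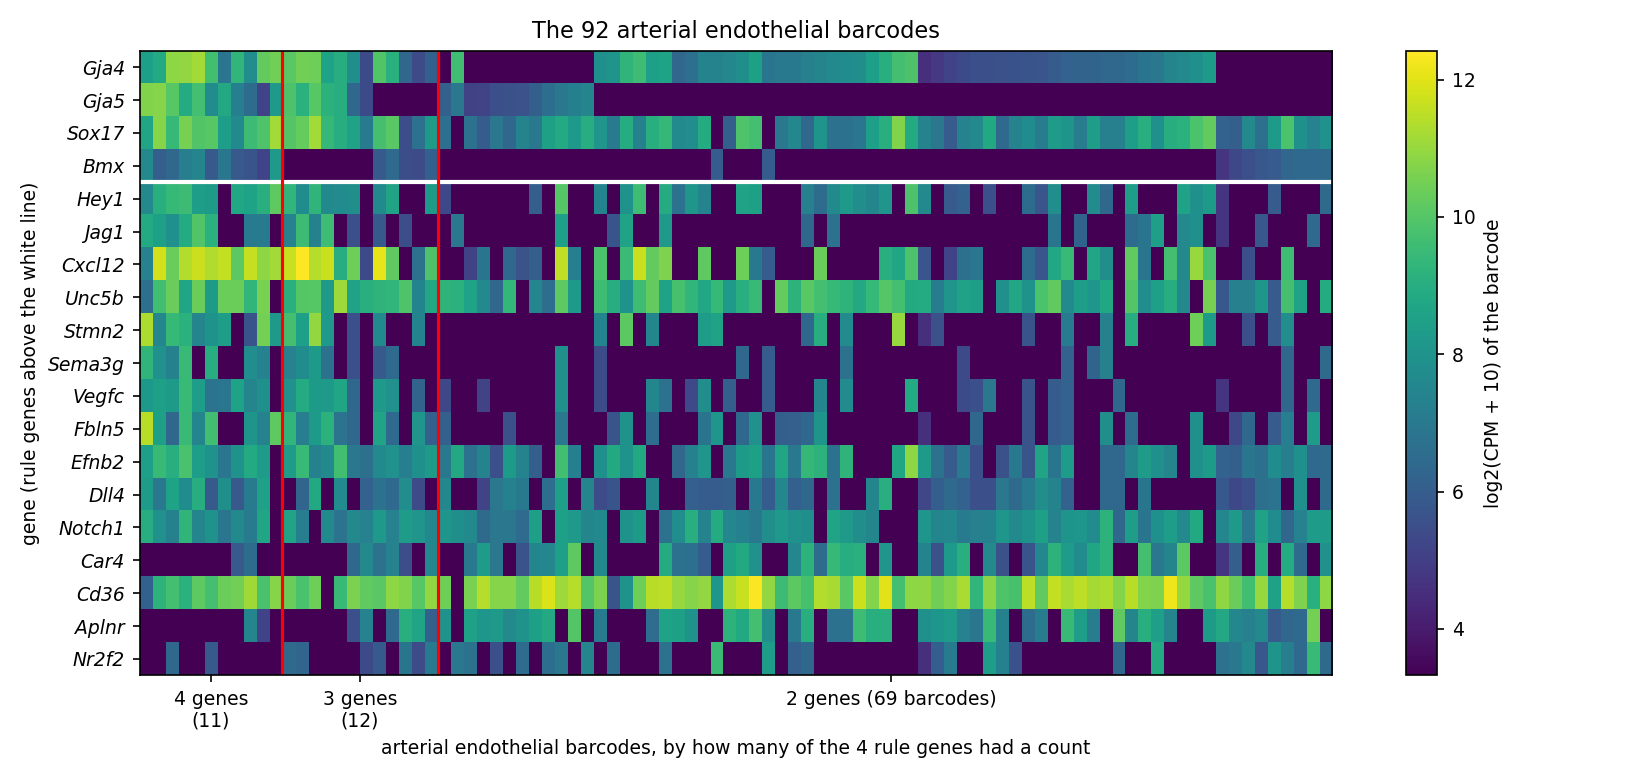
Each column is 1 of the 92 arterial endothelial barcodes, grouped by how many of the 4 rule genes had a count (red lines), and each row is a gene; colour gives log2(CPM + 10) of the barcode. The 23 barcodes with 3 or 4 rule genes on the left carry most of the Hey1, Jag1, Cxcl12, Stmn2 and Sema3g signal and little Aplnr and Car4, while the 69 with 2 rule genes are mixed.

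A gene outside the rule was called higher or lower when its ratio between the groups was at least 2-fold in the same direction in both technical replicates, among genes with about 10 counts or more expected per replicate. Between arterial and other vascular endothelial barcodes 41 of 7371 genes were called higher, or 0.556%, and 9 were called lower, or 0.122%. The median gene had a log2 ratio of 0.02. Of 30 genes listed as arterial outside the rule, 25 could be measured, 12 were called higher and 0 lower, and their median log2 ratio was 1.07. The 12 were Hey1, Jag1, Unc5b, Sema3g, Cxcr4, Mecom, Vegfc, Alox12, Stmn2, Depp1, Glul and Fbln5. The lowest ratios of the list were 0.71 for Hrct1, 0.88 for Cdh13, 1.11 for Nrp1 and 1.30 for Tsc22d1. The lists were compiled with earlier results of these data known, so their direction is not independent evidence. Against a comparator of 92 other vascular barcodes matched in depth, 53 genes were called higher, of which 30 were among the 41.

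**Figure D2:**
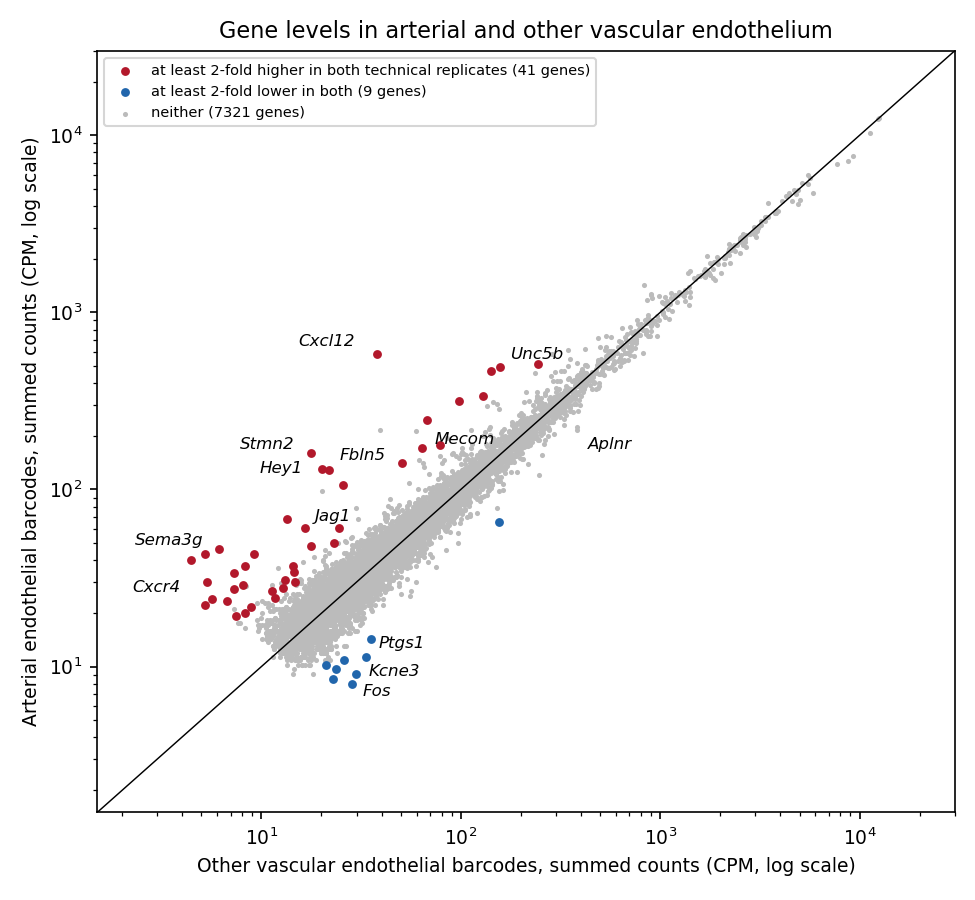
Each point is 1 of 7371 genes, with its CPM in arterial barcodes on the vertical axis and in other vascular barcodes on the horizontal axis, both on log scales; the line marks equal levels. The 41 red genes lie above the line, with Cxcl12 at 578 against 38.0 CPM farthest from it, and the 9 blue genes lie below.

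Among the Notch ligands, Jag1 was called higher and Jag2 and Dll4 were not. Jag1 (chr2:137081456-137116644) was at 60.9 CPM (52.5 and 72.9) in arterial against 16.5 CPM (15.7 and 17.3) in other vascular barcodes, a ratio of 3.70 (2.81 to 4.88). Dll4, the Delta-like ligand of sprouting and arterial endothelium, was at 84.9 CPM (84.6 and 85.3) against 55.2 CPM (50.6 and 59.9), a ratio of 1.54 (1.26 to 1.87). Dll1 fell below the counts needed, with 11.4 against 6.56 CPM, and Dll3 had 0 counts. So 1 of 3 measured ligands passed.

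None of 13 measured Notch receptors and modulators of 17 listed was called in either direction. Notch1 was at 219.9 CPM (223 and 216) in arterial against 139 CPM (131 and 147) in other vascular barcodes, a ratio of 1.58 (1.40 to 1.78). Notch4, the receptor largely restricted to endothelium, was at 84.3 against 58.8 CPM, a ratio of 1.43 (1.18 to 1.74). The arterial values of both receptors lay above the others in each replicate, at less than 2-fold. Ratios were 1.35 for the coactivator Maml1, 1.19 for the gamma-secretase subunit Ncstn, 1.18 for the DNA-binding partner Rbpj, 1.16 for the receptor-cutting protease Adam10, 1.10 for the ligand ubiquitin ligase Mib1, 1.06 for Maml3 and 1.05 for Adam17. They were 0.96 for Maml2, 0.93 for Lfng and 0.89 for Mfng, of which Lfng and Mfng are Fringe sugar transferases that tune receptor choice. Notch2, Notch3, Rfng and Dlk1 had too few counts to be measured.

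Of the Notch targets, Hey1 was the 1 of 4 measured that passed. Efnb2, the ephrin that marks arteries, was at 196 CPM (166 and 238) in arterial against 85.1 CPM (85.3 and 84.9) in other vascular barcodes, a pooled ratio of 2.30 (2.01 to 2.64) that stayed under 2-fold in replicate 1. Nrarp, a feedback inhibitor of Notch, was at 238 against 203 CPM, a ratio of 1.17. Hes1 was at 170 against 168 CPM, a ratio of 1.01 (0.887 to 1.15) whose interval includes 1. Hey2 and Heyl were not measured, with 3.99 against 3.51 CPM and 11.4 against 6.86 CPM.

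**Figure D3:**
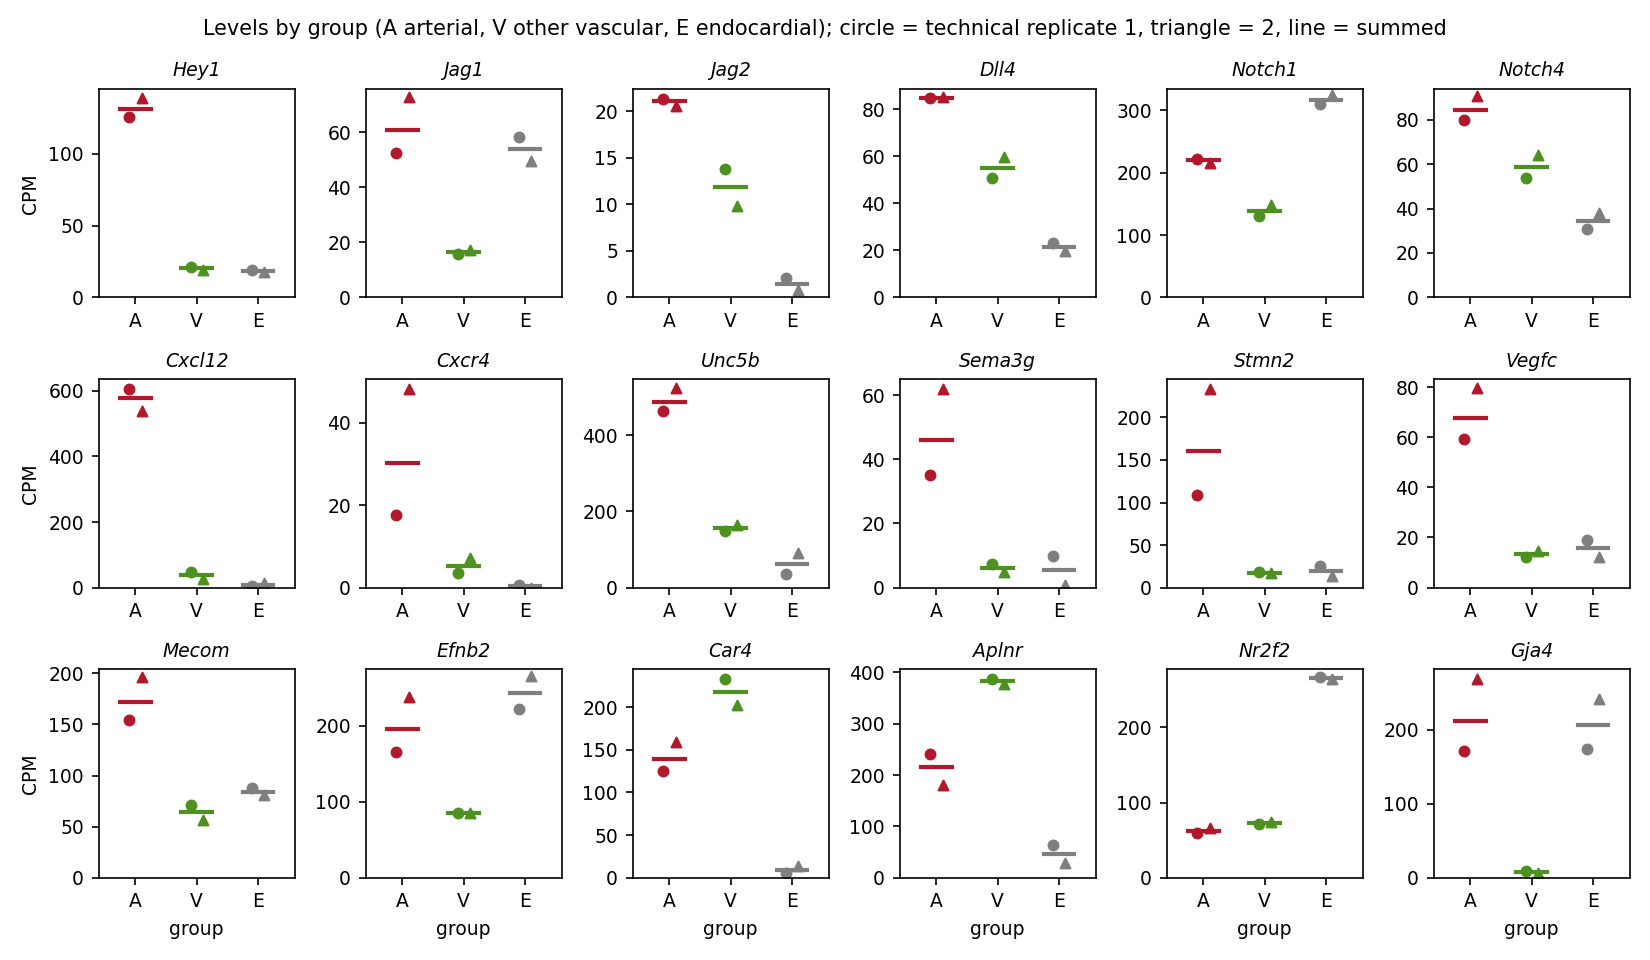
Each panel shows 1 gene in CPM on a vertical axis from 0, in arterial (A), other vascular (V) and endocardial (E) barcodes; circles are technical replicate 1, triangles replicate 2 and lines the summed value. Hey1, Cxcl12, Unc5b and Sema3g are highest in arterial barcodes in both replicates, Aplnr and Car4 are highest in other vascular barcodes, and Nr2f2 is highest in endocardial ones.

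Genes of axon guidance and chemokine signalling held the largest ratio. Cxcl12 (chr6:117168535-117181367) was at 578 CPM (606 and 539) in arterial against 38.0 CPM (48.2 and 27.5) in other vascular barcodes, a ratio of 15.2 (13.2 to 17.6), with counts in 60 of 92 members. Its receptor Cxcr4 was at 30.2 CPM (17.5 and 48.1) against 5.34 CPM (3.62 and 7.10), a ratio of 5.66 (3.62 to 8.93). Ligand and receptor were thus both called higher. Sema3g, a secreted class 3 semaphorin, was at 46.1 CPM (35.0 and 61.9) against 6.10 CPM (7.23 and 4.94), a ratio of 7.57 (5.12 to 11.3). Unc5b (chr10:60762593-60831581), a netrin receptor of arterial endothelium, was at 488 CPM (464 and 523) against 156 CPM (150 and 163), a ratio of 3.12 (2.85 to 3.42). It had counts in 84 members. These were the 4 called of 15 measured members of a list of 21, whose median log2 ratio was 0.57. Near parity were Nrp1 at a ratio of 1.11, the venous receptor Ephb4 at 1.06 and Robo4 at 1.04, and Nrp2 was at 0.82.

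Promoters of the genes called higher were examined for the letters bound by RBPJ and by SOX factors. The promoters of Cxcl12, the gene with the largest ratio, and of Unc5b are shown as 250 bases before to 50 bases after the start, from RefSeq on GRCm38.p6, with the RBPJ core TGGGAA or its complement TTCCCA in capitals. Cxcl12 lies at chr6:117168285-117168584 on the plus strand and holds 1 match, 170 bases before the start. Unc5b lies at chr10:60831532-60831831 on the minus strand and holds 0 matches.
Cxcl12: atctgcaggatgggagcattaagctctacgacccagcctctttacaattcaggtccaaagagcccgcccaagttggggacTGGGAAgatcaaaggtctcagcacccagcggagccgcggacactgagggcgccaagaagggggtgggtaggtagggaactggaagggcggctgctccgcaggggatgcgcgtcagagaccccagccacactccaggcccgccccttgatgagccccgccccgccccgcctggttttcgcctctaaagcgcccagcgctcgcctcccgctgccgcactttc
Unc5b: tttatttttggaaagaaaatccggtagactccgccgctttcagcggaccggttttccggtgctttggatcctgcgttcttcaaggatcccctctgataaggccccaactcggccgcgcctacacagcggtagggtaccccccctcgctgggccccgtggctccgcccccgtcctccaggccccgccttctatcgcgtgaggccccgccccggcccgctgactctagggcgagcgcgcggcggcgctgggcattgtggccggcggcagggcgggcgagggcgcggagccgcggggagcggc
Of the 41 genes, 31 matched the promoter table with 37 promoters. The RBPJ core, searched on both strands, was in 10 of the 37, or 27.0%, against 25.6% of all 32851 promoters. The SOX core ACAAT or ATTGT was in 9 of the 37, or 24.3%, against 31.0% of all. Each motif was searched on its own, and matches are letters in these windows only.

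In VEGF, angiopoietin and apelin signalling, 1 of 15 measured genes was called higher and 0 lower. Vegfc, a growth factor acting through Flt4 and Kdr, was at 67.8 CPM (59.3 and 79.8) in arterial against 13.4 CPM (12.4 and 14.5) in other vascular barcodes, a ratio of 5.05 (3.80 to 6.73). Pdgfb, the growth factor that recruits mural cells, was at a ratio of 1.60, Flt4 at 1.54 and Flt1 at 1.36. On the low side the apelin receptor Aplnr was at 216 CPM (242 and 180) against 383 CPM (388 and 377), a ratio of 0.57 (0.506 to 0.630). Its ligand Apln was at 118 against 159 CPM, a ratio of 0.74, and Adm was at a ratio of 0.60. The Aplnr level was lower in arterial barcodes in both replicates without reaching 2-fold in replicate 1.

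Of 18 measured genes of TGF-beta and BMP signalling, Tgfb2 and Smad6 were called higher and 0 lower, with a median log2 ratio of 0.41. The ligand Tgfb2 was at 29.0 CPM (28.2 and 30.3) in arterial against 8.08 CPM (9.34 and 6.79) in other vascular barcodes, a ratio of 3.59 (2.40 to 5.38). The inhibitory Smad6 was at 47.8 CPM (48.6 and 46.8) against 17.7 CPM (17.5 and 17.9), a ratio of 2.71 (2.02 to 3.61). Smad7, the other inhibitory Smad, reached a ratio of 1.76 and the TGF-beta binding protein Ltbp4 one of 2.16, neither past 2-fold in both replicates. At the low end were Id2 at 0.81, Smad1 at 0.89, Tgfbr1 at 0.96 and Tgfb1 at 1.04.

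Of 28 measured endothelial transcription factors, Mecom and Prdm16 were called higher and 0 lower, with a median log2 ratio of 0.08. Mecom was at 172 CPM (155 and 197) in arterial against 64.0 CPM (71.4 and 56.5) in other vascular barcodes, a ratio of 2.69 (2.31 to 3.12). Prdm16, its close relative of the PR-domain family, was at 26.8 CPM (28.2 and 24.8) against 11.3 CPM (11.5 and 11.1), a ratio of 2.37 (1.61 to 3.47). Epas1, which encodes the hypoxia factor HIF-2 alpha, was at 305 against 152 CPM, a ratio of 2.01 (1.81 to 2.24) that was 1.99 in replicate 1, and Etv6 was at 1.71. The SoxF relatives of Sox17 were near parity, with Sox7 at 161 against 141 CPM and Sox18 at 342 against 264 CPM. Meox2, a factor of capillary lipid uptake in heart, was at 155 against 256 CPM, a ratio of 0.61, Tead4 was at 0.64 and Fli1 at 0.86. The vein factor Nr2f2 was at 62.7 CPM (60.3 and 66.0) against 73.2 CPM (71.7 and 74.7), a ratio of 0.86 (0.689 to 1.06) whose interval includes 1.

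Elastic fibre and basement membrane genes had 4 of 25 measured members called higher and 0 lower, and the calls of Eln and Vwf rested on few barcodes. Fbln5, an elastic fibre assembly protein, was at 128 CPM (72.9 and 206) in arterial against 21.8 CPM (25.3 and 18.2) in other vascular barcodes, a ratio of 5.88 (4.75 to 7.30). Of its 225 counts, 91 came from 1 member, and without the 2 highest members the ratio was 3.18. Elastin, Eln, was at 469 CPM (422 and 535) against 142 CPM, a ratio of 3.31. Of its 823 counts, 332 came from 1 member of replicate 1 and 316 from 1 member of replicate 2, and without both the ratio was 0.729. Vwf, which carries clotting factor VIII, was at 33.6 against 7.32 CPM, but 28 and 24 of its 59 counts came from 1 member of each replicate, and without both the ratio was 0.559. Fibronectin, Fn1, was at 335 CPM (271 and 426) against 129 CPM (130.2 and 128), a ratio with an interval of 2.34 to 2.89, and its highest member held 51 of its 589 counts. The called direction of Eln and Vwf therefore turned when 2 of 92 members were left out.

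The member of replicate 2 behind these values had 32423 counts and 6376 genes. It held 54 counts of Gja5, 322 of Mgp, 316 of Eln, 172 of Fbln2, 91 of Fbln5 and 24 of Vwf, and 0 of Aplnr. The smooth muscle genes Acta2 and Myh11 had 1 and 0 counts there, and the fibroblast genes Col1a1 and Dcn had 3 and 0. It supplied 85.0% of all Mgp counts of the members. Mgp, an inhibitor of vessel calcification, had a pooled ratio of 5.47 (40.8 and 464 CPM in arterial against 35.0 and 44.1 CPM in other vascular barcodes), and 0.838 without this member. Without it 35 of the 41 genes remained called higher. In the rest of the matrix list, Fbln2 stood at a ratio of 3.61 (2.00 without this member, which held 45.6% of its counts), Lamb1 at 0.95, Sparcl1 at 0.94, Lama4 at 0.90 and Emilin1 at 0.72.

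Flow response, vasoactive and junction genes mostly lay near parity. Of 15 measured flow and vasoactive genes, 0 were called higher and Ptgs1, the constitutive prostaglandin synthase, was called lower. Ptgs1 was at 11.4 CPM in arterial against 33.4 CPM in other vascular barcodes, a ratio of 0.34 (0.204 to 0.540). The angiotensin-converting enzyme Ace was at 28.5 CPM (16.5 and 45.4) against 8.38 CPM (9.04 and 7.71), a pooled ratio of 3.40 that replicate 1 left under 2-fold. Ratios were 1.63 for Kcnj8, 1.32 for the nitric oxide synthase Nos3 and 1.31 for Ece1, and on the low side 0.78 for Ednrb, 0.73 for Nostrin and 0.59 for the water channel Aqp1. Of 16 measured junction and adhesion genes, 0 were called higher and Icam1, a leukocyte adhesion molecule, was called lower at 9.68 against 23.6 CPM, a ratio of 0.41 (0.233 to 0.678). The connexin 43 gene Gja1 was at 109 against 93.9 CPM, a ratio of 1.16 (0.985 to 1.37), and Mcam at 1.19, F11r at 1.16, Pcdh1 at 1.13, Jam3 at 0.87, Pcdh17 at 0.81 and Jam2 at 0.78 completed the ends of the list.

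Genes of capillaries were also counted in the arterial barcodes. Of 21 measured capillary and lipid uptake genes, 0 were called in either direction, with a median log2 ratio of -0.14. The fatty acid transporter Cd36 was at 1619.8 CPM (1616 and 1625) in arterial against 1785 CPM in other vascular barcodes, and the carbonic anhydrase Car4 was at 140 CPM (125 and 160) against 218 CPM (233 and 202), a ratio of 0.64 (0.558 to 0.735). Slc28a2 had the lowest ratio, 0.51, followed by Meox2 and, at 0.63, Timp4. At the high end were Ly6a at 1.48, Btnl9 at 1.43, Slc9a3r2 at 1.27 and Ly6c1 at 1.18. Of 9 measured venous genes, Vwf alone was called, and higher. Aplnr, Ramp3, Cpe and Emcn were lowest among these, with ratios of 0.57, 0.62, 0.64 and 0.78, and Il6st was at 1.44.

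**Figure D4:**
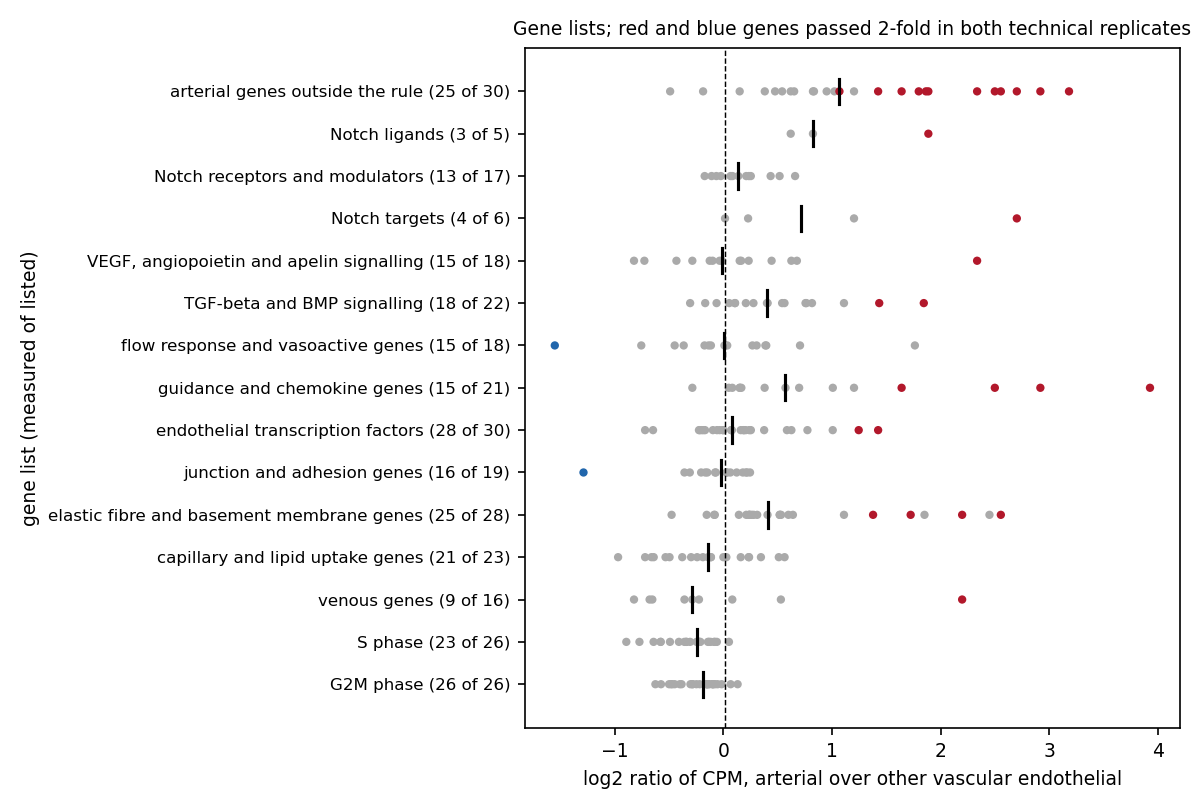
Each point is a measured gene of the named list, placed by its log2 ratio of CPM in arterial over other vascular barcodes; black bars are list medians, the dashed line is the median of all genes, and red and blue points passed 2-fold in both technical replicates. The arterial list lies to the right with a median of 1.07, and the capillary, venous and cell cycle lists lie at or left of the dashed line.

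Outside the lists, the highest ratios belonged to a secreted protease and a collagen. Pcsk5, a proprotein convertase, was at 39.9 CPM (26.2 and 59.2) in arterial against 4.42 CPM (6.33 and 2.47) in other vascular barcodes, a ratio of 9.02 (5.77 to 14.4). Col8a1, a short-chain collagen of vessel walls, was at 43.3 CPM (31.1 and 60.5) against 5.18 CPM (5.12 and 5.25), a ratio of 8.35 (5.50 to 12.9), in 16 members. Stmn2, a microtubule-binding stathmin, was the highest of the arterial list at 161 CPM (109 and 234) against 17.7 CPM (18.1 and 17.3), a ratio of 9.08 (7.29 to 11.4). Next came Nebl at 4.73, the desaturase-like Fads3 at 4.50, the kinase Nuak1 at 4.29, the sialyltransferase St8sia6 at 4.24, the transporter Atp13a3 at 4.14, Amd1, whose near-identical copies make its counts uncertain, at 3.74, Sat1 at 3.20, Azin1 at 2.76, Pi16 at 2.59 and the growth factor receptor Fgfr1 at 2.58. Pi16 had a ratio of 1.83 without its highest member. Without the member of replicate 2 highest in Mgp, the ratios were 6.56 for Stmn2, 6.69 for Pcsk5 and 5.93 for Col8a1. That member was the highest in 10 of the 41 genes called higher.

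The genes called lower were few and low in counts. The immediate early factor Fos was at 7.97 CPM (6.80 and 9.63) in arterial against 28.5 CPM (32.5 and 24.4) in other vascular barcodes, a ratio of 0.28 (0.150 to 0.481), though 0.585 against the depth-matched comparator. Kcne3, a potassium channel subunit, was at 9.11 CPM (9.72 and 8.25) against 29.9 CPM (30.4 and 29.3), a ratio of 0.30 (0.171 to 0.508). Nts, the neurotensin precursor, was at 65.5 CPM (63.2 and 68.8) against 156 CPM, a ratio of 0.42 (0.343 to 0.509). The others were the DNA primase subunit Prim1 at 0.37, Akap5 at 0.40, Hspa2 at 0.42 and Pcbp3 at 0.48.

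The arterial barcodes held many cells with cell cycle transcripts. After each barcode was thinned to 2000 counts, 48.9% of arterial barcodes (51.1 and 46.7%; interval 38.3 to 59.6%) had at least 3 counts of either the S phase or the G2M genes, against 57.9% of other vascular (interval 53.8 to 61.9%), 28.4% of endocardial (23.2 to 34.1%) and 35.7% of fibroblast barcodes. Without thinning the values were 84.8% and 78.6% in arterial and other vascular barcodes. The intervals of the arterial and other vascular shares overlapped after thinning. None of 23 measured S phase and 26 measured G2M genes was called, with median log2 ratios of -0.25 and -0.19. The lowest were the nucleotide synthesis genes Rrm2 at 0.54 and Tyms at 0.59, the replication genes Mcm2 at 0.64 and Fen1 at 0.67, and the mitotic genes Cdc20 at 0.65, Kif20b at 0.67, Bub1 at 0.71 and Cdk1 at 0.72. The highest were Ube2c at 1.10, Ccnb2 at 1.05, Mcm7 at 1.04, Cenpf at 0.99, Ung and Plk1 at 0.96, Hells at 0.95 and Rpa2 at 0.94. Free RNA was not removed, and its part in these shares was not tested.

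Shares of barcodes with a count were compared at the same depth of 2000 counts, which kept all 92 arterial and 594 of 598 other vascular barcodes. Cxcl12 was counted in 41.3% of arterial barcodes (interval 31.1 to 52.1%) against 5.72% of other vascular barcodes (4.00 to 7.91%). Hey1 was counted in 23.9% (15.6 to 33.9%) against 4.38% (2.88 to 6.35%), and Unc5b in 63.0% against 23.7%. Aplnr ran the other way, at 26.1% (17.5 to 36.3%) against 50.3% (46.2 to 54.4%). Unthinned, the shares were 65.2% against 13.4% for Cxcl12, 59.8% against 15.6% for Hey1 and 64.1% against 82.1% for Aplnr. In fibroblast barcodes, with a median of 5417 counts, the thinned shares were 14.7% for Cxcl12, 7.70% for Hey1, 29.3% for Unc5b, 0.0786% for Stmn2 and 0.236% for Aplnr. In endocardial barcodes, with a median of 7759.5 counts, they were 1.44% (0.393 to 3.64%) for Cxcl12, 4.68% for Hey1 and, for Unc5b, 15 of 278 barcodes (interval 3.05 to 8.74%). The arterial shares of these 3 genes were above both. The Hey1 share of other vascular barcodes was at or below both, while their Cxcl12 and Unc5b shares lay between the endocardial and the fibroblast values. Whether such counts are background was not tested. Stmn2 was counted in 17.4% of arterial against 3.87% of other vascular barcodes.

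The members differed strongly among themselves. The 23 with counts of 3 or 4 rule genes (12 and 11) had a median of 16701 counts, and the 69 with 2 rule genes (35 and 34) had 15123. Cxcl12 was at 1752 CPM (1809 and 1669) in the 23, 204 CPM (216 and 188) in the 69 and 38.0 CPM in other vascular barcodes. Hey1 was at 292 CPM (227 and 388), 79.6 CPM (92.6 and 61.3) and 20.1 CPM in the same groups. Both genes thus stepped down across the 3 groups in each replicate, without overlap. Jag1 was at 191 CPM (163 and 232) in the 23, against 19.5 CPM (16.7 and 23.5) in the 69 and 16.5 CPM in other vascular barcodes, so that the 69 stood near the level outside. Sema3g, at 160.3, 9.76 and 6.10 CPM, and Vegfc, at 205, 24.0 and 13.4 CPM, showed the same order. Jag2, below the size rule over all members, was at 44.8, 13.5 and 11.9 CPM.

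Some genes of the capillary and venous lists ran the other way. Aplnr was at 94.3 CPM (151 and 11.6) in the 23, 255 CPM (271 and 233) in the 69 and 383 CPM (388 and 377) in other vascular barcodes. Car4 was at 44.8 CPM (51.7 and 34.8), 170 CPM (149 and 198) and 218 CPM in the same groups, and Nr2f2 at 28.3 CPM (27.8 and 29.0), 73.6 CPM and 73.2 CPM. Aplnr was at 0 counts in 15 of the 23, 18 of the 69 and 107 of the 598 other vascular barcodes. The capillary genes Btnl9, at 413, 484 and 327 CPM, Ly6a, at 526, 300.4 and 240.0 CPM, and Ly6c1, at 589, 442 and 405 CPM in the 23, the 69 and the other vascular barcodes, were lowest in the other vascular barcodes. At least 3 counts of Cxcl12 were found in 21 of the 23, 22 of the 69 and 26 of the 598. Cxcl12 and Hey1 were both at 0 in 20 of the 92 members, of which 19 were among the 69, and in 452 of the 598. These numbers of barcodes were taken without thinning. Median depth was 16701 counts in the 23, 15123 in the 69 and 8228.5 in the other vascular barcodes.

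**Figure D5:**
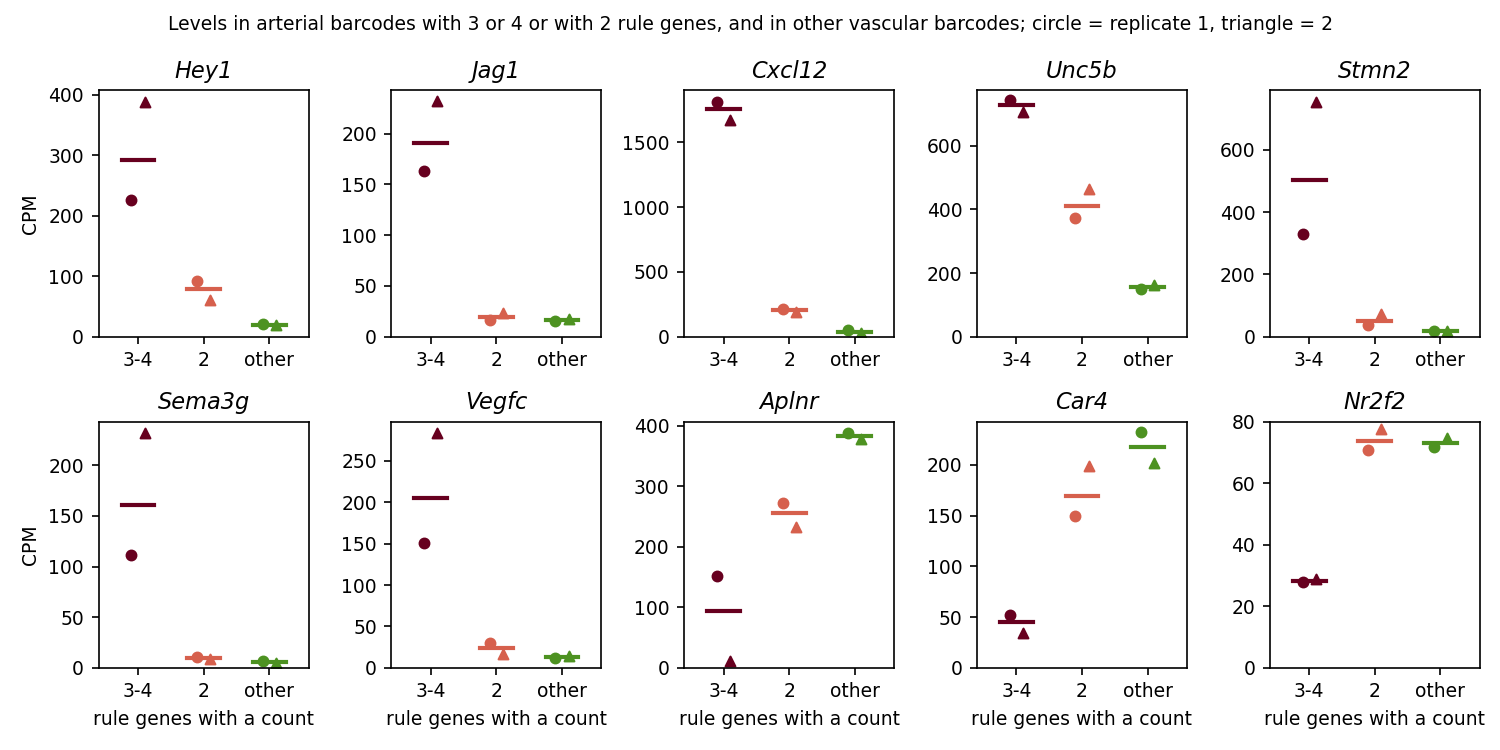
Each panel gives 1 gene in CPM on a vertical axis from 0, for arterial barcodes with 3 or 4 rule genes (n = 23), arterial barcodes with 2 rule genes (n = 69) and other vascular barcodes (n = 598); circles are technical replicate 1, triangles replicate 2 and lines the summed value. Hey1, Cxcl12, Unc5b and Stmn2 step down from left to right, Aplnr and Car4 step up, and Jag1, Sema3g and Vegfc are far higher in the 23 than in either other group.

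With the 23 members alone set against other vascular barcodes, 94 of 2945 genes were called higher, or 3.19%, and 26 lower, or 0.883%. Of 20 measured genes of the arterial list 16 were called higher and 0 lower, with a median log2 ratio of 1.98 against 0.05 over all genes. They included genes under the size rule over all 92, such as Dll4 at 146 CPM (147 and 145) against 55.2 CPM, Efnb2 at 314 CPM (262 and 388) against 85.1 CPM and Acvrl1, a BMP receptor of arterial endothelium, at 111 CPM (79.5 and 156) against 35.2 CPM. Of 19 measured capillary genes, 4 were called lower and 0 higher: Car4, the lipase Lpl at 87.2 against 327 CPM, Timp4 at 23.6 against 156 CPM and the potassium channel Kcna5 at 47.2 against 125 CPM. Of 5 measured venous genes, Aplnr and Nrp2, the second at 233 against 658 CPM, were called lower and Il6st, at 82.5 against 36.3 CPM, higher. Tyms, Dut and Slbp were called lower among 4 measured S phase genes. Of 5 measured fibroblast markers Col1a1 and Col1a2 were called higher, as was the 1 measured pericyte marker, Abcc9, at 87.2 against 41.6 CPM. Single barcodes held 53 of the 89 Col1a1 counts and 40 of the 94 Col1a2 counts of the 23. Abcc9 had 37 counts in 13 barcodes, at most 9 in 1. Among matrix genes also called higher, single barcodes held 332 of 719 Eln counts and 91 of 180 Fbln5 counts. The part of the fibroblast and pericyte markers in these differences was not tested.

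With the 69 members of 2 rule genes alone, 5 of 6492 genes were called higher, or 0.077%, and 9 lower, or 0.139%. The 5 were Cxcl12 at a ratio of 5.38, Hey1 at 3.96, Stmn2 at 2.93, Unc5b at 2.63 and Sat1 at 2.29. The arterial list then had a median log2 ratio of 0.44 over 20 measured genes, of which 3 were called higher and 0 lower. The capillary list had a median of -0.01. The arterial list thus set the 69 apart less than the 23, in which 16 of 20 measured genes were called higher. These comparisons did not measure the same genes overall in number, 6492 against 2945. Col8a1 turned to a ratio of 0.869. Of 9 genes called lower, 4 were the fibroblast markers Col1a1, Col1a2, Col3a1 and Dcn. The split uses the rule genes and depth enters it, so it is a description of the members.

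The members were also split by Gja5, counted in 30 members (13 and 17; median 15925.5 counts) and at 0 in 62 (34 and 28; median 15501.5 counts). Gja5 is a rule gene and 18 of the 30 are among the 23 members above, so the split is a further description of largely the same barcodes. Of 4024 genes 42 were called higher in Gja5-positive members, or 1.04%, and 6 lower, or 0.149%. Col8a1 was at 120.0 CPM (90.9 and 149) in Gja5-positive against 6.73 CPM (8.08 and 4.48) in Gja5-negative members, a ratio of 17.8 (8.55 to 43.0). Pcsk5 was at 108 CPM (73.5 and 142) against 7.57 CPM (8.08 and 6.73), a ratio of 14.2 (7.02 to 32.6). Jag1 was at 146 CPM (147 and 146) against 20.2 CPM (16.2 and 26.9), a ratio of 7.25 (4.56 to 11.9), and Dll4 at 131 CPM (136 and 125) against 63.1 CPM (64.6 and 60.5), a ratio of 2.07 (1.48 to 2.89). Both measured Notch ligands were therefore higher, as were 8 of 21 measured genes of the arterial list. Nebl, Amd1, Rgs10 and Col1a1 followed outside the lists, with ratios of 5.87, 5.09, 4.96 and 4.89.

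Lower in Gja5-positive members were the cell cycle inhibitor Cdkn1a at 22.9 CPM (35.0 and 10.7) against 78.2 CPM (88.8 and 60.5), a ratio of 0.29 (0.150 to 0.526), and the vein factor Nr2f2 at 28.2 CPM (31.5 and 24.9) against 79.1 CPM (71.3 and 91.9), a ratio of 0.36 (0.196 to 0.610). The replication gene Mcm6 at 0.35, the chromatin remodeller Hells at 0.39, the sterol sensor Insig1 at 0.41 and the licensing inhibitor Gmnn at 0.47 made up the rest. The fibroblast markers Col1a1, Col1a2 and Col3a1 were all called higher in Gja5-positive members, Col3a1 at 239.9 against 52.2 CPM. Few barcodes held many of these counts. A member of replicate 1 with 6 Gja5 counts had 41 of Col3a1 and 40 of Col1a2. Among the 23 members with 3 or 4 rule genes, 1 barcode held 81 of the 146 Col3a1 counts. The part of the fibroblast markers in the other differences was not tested.

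Set against 280 endocardial barcodes (140 and 140; median 7759.5 counts), the lining of the heart chambers, the arterial barcodes differed more widely. Of 7852 genes 360 were called higher, or 4.58%, and 553 lower, or 7.04%. In the capillary list 18 of 21 measured genes were called higher and Plvap, the diaphragm protein of fenestrae, called lower, with a median log2 ratio of 2.50 against -0.09 over all genes. Cd36 was at 1619.8 CPM (1616 and 1625) in arterial against 209 CPM (178 and 243) in endocardial barcodes, a ratio of 7.74 (7.08 to 8.48). The vascular genes of the rule favour capillary cells, so this list is not independent of the choice of members. Of 24 measured arterial genes 13 were called higher and Gkn3 lower.

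Cxcl12 was at 578 against 8.76 CPM, a ratio of 66.0 (44.1 to 103), Hey1 at 131 against 18.3 CPM, a ratio of 7.18 (5.27 to 9.95), and Unc5b at 488 against 62.8 CPM, a ratio of 7.77 (6.59 to 9.21). Notch genes divided. Dll4 was at 84.9 CPM in arterial against 21.5 CPM (23.2 and 19.8) in endocardial barcodes, a ratio of 3.94 (2.90 to 5.42), and Notch4, Mfng, Lfng and Nrarp were called higher with it. Notch2 was called lower at 12.0 against 41.6 CPM. Jag1, at 60.9 against 54.0 CPM, was at a ratio of 1.13 (0.871 to 1.46) and Notch1, at 219.9 against 317 CPM, at 0.69 (0.614 to 0.783). Jag1 was thus past 2-fold against other vascular barcodes and not against endocardium. Efnb2 was at 196 against 243 CPM, a ratio of 0.81 (0.705 to 0.919).

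Lower in arterial barcodes were the endocardial markers outside the rule, 4 of 4 measured: Wnt4, Plagl1, Cdh11 and Nfatc1, the last at 35.3 CPM (34.0 and 37.1) against 118 CPM (113 and 123). Both groups were chosen by their counts of Npr3, Tmem108, Foxc1 and Nrg1, so this list is not independent of the choice of groups. Nr2f2 was at 62.7 against 266 CPM, a ratio of 0.24 (0.191 to 0.288), Vwf at 33.6 against 156 CPM, and the vasoconstrictor endothelin, Edn1, at 18.2 against 130.3 CPM, a ratio of 0.14 (0.094 to 0.201). Outside the lists the highest genes were Fam89a at 27.3 against 0.365 CPM, Gm12002 at 60.9 against 2.19 CPM, St8sia6 at 23.9 against 1.46 CPM, the lipase Mgll at 854 against 56.2 CPM, Tmem255b at 23.9 against 1.83 CPM and Ifi203 at 200.5 against 15.3 CPM. In other vascular barcodes Fam89a, Gm12002 and Ifi203 stood at 27.9, 54.0 and 180 CPM, near the arterial levels. St8sia6 was called higher against those barcodes as well. Among the lowest were Prr15, Upk3b, Cytl1, Art4 and Ahnak2, each with 0.57 CPM, or 1 count, in arterial barcodes. Upk3b is a mesothelial gene, and 3 of 4 measured epicardial markers were called lower in arterial barcodes. Of 8 measured fibroblast markers 7 were called lower, with a median log2 ratio of -2.54, and the list summed to 378 CPM in arterial against 2245 CPM in endocardial barcodes. Of 3 measured pericyte markers Rgs5 and Abcc9 were called higher, at a list sum of 302 against 80.0 CPM. The part of these markers in the counts of called genes was not tested.

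Markers of other cell types were also counted in the members, with some lists above and some below other vascular barcodes. Summed over its marker list, arterial barcodes had 378 CPM of 10 fibroblast genes against 469 CPM in other vascular barcodes, 152 against 109 CPM of 7 smooth muscle genes, 302 against 210 CPM of 8 pericyte genes and 22.8 against 70.4 CPM of 9 macrophage genes, with Fcgr1 and Adgre1 at 0 in arterial barcodes. The 10 cardiomyocyte genes summed to 989 against 1143 CPM, the 7 erythroid genes to 559 against 709.7 CPM, the 8 epicardial genes to 119.6 against 123 CPM, the 7 lymphatic genes to 232 against 86.0 CPM and the 5 glial genes to 13.7 against 5.64 CPM. The 10 endocardial genes, 4 of which were used to choose the groups, summed to 220.4 CPM in arterial, 152 CPM in other vascular and 3111 CPM in endocardial barcodes. Arterial sums of smooth muscle and pericyte genes lay above those of other vascular barcodes in replicate 1 only, and the lymphatic sum in replicate 2 only. Rgs5, a pericyte gene, had 277 counts in 19 members, 78 of them in 1. A member of replicate 2 had 172 counts of Ccl21a and 44 of Lyve1, both lymphatic markers, and held 172 of the 173 Ccl21a counts of the 92. Fibroblast, smooth muscle, pericyte and macrophage lists together held over 1% of counts in 1 of 92 arterial and 13 of 598 other vascular barcodes. The lymphatic list was not part of that count, and the member rich in Ccl21a had 265 of its 19060 counts from it. Doublets were not called, and their part in these values was not tested.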

How the data were processed

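Gene counts per cell barcode were deposited by the authors as 1 matrix for each technical replicate (27999 features; 5888 and 6047 barcodes). Cell Ranger 2.1.0 and the mm10 build are named per the submitters' processing notes; whether a count is a unique molecule or a read is not given in the sources used here. Identifiers were matched to symbols of GENCODE on GRCm38 (27645 matched, 354 did not). The labels name 1 internal library for both technical replicates while the second matrix carries another name; the matrices were assigned by deposit record.

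Counts were summed over the barcodes of a group and scaled to CPM. A gene was measured when the mean of both groups' CPM gave at least 10 counts at the total of the first group in each replicate. It was called when its ratio was at least 2, or at most 0.5, in both. The first group was all arterial barcodes or, in the splits, the subset of members. The comparisons therefore measured different genes, and their called shares are not over the same genes. A sum of 0 entered at a floor of 3 counts. Ratios have exact conditional binomial and shares exact Clopper-Pearson 95% intervals, which cover counting error only. The 20 genes of the selection rule were left out of all counts of called genes. Endocardial barcodes passed the gene, globin, myosin and Pecam1 or Cdh5 steps and had at least 3 counts of Npr3, Tmem108, Foxc1 and Nrg1; fibroblast barcodes passed the gene, globin and myosin steps and had no Pecam1 or Cdh5 count and at least 10 of Col1a1, Col1a2, Dcn and Postn. With 1 biological sample, no p-value was computed.

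Named genes were, of each of 15 lists, the 4 highest and 4 lowest, all Notch genes and markers, and outside the lists the 12 highest and 12 lowest among called genes (6 in the other comparisons); further genes were named after their values were seen. Some genes the rule names are not reported here. The members and lists were chosen with earlier results of these data known. Doublets were not called and free RNA was not removed. The calling was tested on simulated counts with known fold changes. These held counting error only and no variation between barcodes, so the test does not cover genes whose counts lie in few barcodes. Sums used scipy 1.17.1, numpy 2.4.6 and pandas 2.3.3 under Python 3.11.15, and plots used matplotlib 3.10.9.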

Additional observations from a re-analysis of the deposited data

How the results depend on the processing

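Numbers of called genes moved with the settings. Against other vascular barcodes (41 higher and 9 lower), a mean of CPM over barcodes gave 16 lower, thinning to 2000 counts gave 12 higher and 2 lower, a minimum of 5 expected counts gave 68 and 25, and one of 20 gave 20 and 1. A 1.5-fold limit gave 158 and 54, a 3-fold limit 16 and 1, and a comparator with 0 counts of the 4 rule genes 73 and 15. Leaving out a technical replicate, so that the other decided alone, gave 125 to 156 higher and 93 to 96 lower. Against endocardial barcodes (360 and 553), thinning gave 101 and 87, a minimum of 20 gave 342 lower, a 1.5-fold limit gave 749 and 1108, a 3-fold limit 167 and 303, and leaving out a replicate 556 to 615 and 912 to 1085. Between Gja5-positive and Gja5-negative members (42 and 6), leaving out a replicate gave 154 to 185 and 70 to 99. A threshold of 5 counts of the rule genes left 60 members, and single replicates had 45 to 47. The cycling share of arterial barcodes was 60.9% with at least 2 counts, 31.5% with at least 5 and 84.8% without thinning. In other vascular barcodes these shares were 69.2%, 43.1% and 78.6%. The following were chosen after seeing the data. Members with 2 rule genes only gave 5 higher against other vascular barcodes and turned Col8a1 to a ratio of 0.869, and members with 3 or 4 rule genes gave 94 and 26, and 167 and 139 against endocardium. Without the member highest in Mgp, 3 genes were lower in Gja5-positive members, and against other vascular barcodes 35 were higher, all among the 41, and 8 lower. A depth-matched comparator gave 53 higher and 10 lower. The cause of these shifts was not tested. By construction, stricter limits call fewer genes, and fewer counts leave fewer genes measured. With a replicate left out, a gene had to pass the limit in the other alone. Over all settings, the ratio to other vascular barcodes ran from 3.96 to 14.5 for Hey1, 5.38 to 46.1 for Cxcl12, 2.63 to 4.66 for Unc5b, 1.19 to 11.6 for Jag1 and 0.25 to 0.67 for Aplnr. No paired analysis was possible because the replicates are 2 libraries of 1 sample and the groups are barcodes within each.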

Other observations

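Genes of polyamine handling were looked at after 4 of them had been seen among the genes higher in arterial than in other vascular barcodes, and 10 were then read. Polyamines are small charged molecules made from ornithine by the decarboxylase Odc1. Azin1, which protects that enzyme from its antizyme inhibitors, was at 141 CPM in arterial against 50.9 CPM in other vascular barcodes, a ratio of 2.76. The transporter Atp13a3 was at a ratio of 4.14, the acetyltransferase Sat1 at 3.20 and Amd1, which feeds spermidine synthesis, at 3.74. Odc1 ran the other way, at 121 CPM (133 and 103) in arterial against 247 CPM (251 and 243) in other vascular barcodes, a ratio of 0.49 (0.42 to 0.56) that stayed under the 2-fold limit in replicate 1. Against 92 other vascular barcodes matched in depth the ratios were 3.35 for Azin1, 5.59 for Atp13a3, 2.93 for Sat1, 4.62 for Amd1 and 0.48 for Odc1. In members with 3 or 4 rule genes against those with 2, Odc1 was at 23.6 against 152 CPM, Azin1 at 335 against 78.9 CPM and Atp13a3 at 278 against 51.1 CPM. The antizyme Oaz1 was at a ratio of 1.06, Oaz2 at 1.48, Sms at 1.24, Smox at 0.78 and Srm at 0.77. Amd1 has near-identical copies in the mouse genome, so its counts are uncertain.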
